A study of Mus musculus with 4 samples.

Results

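The Mo_GC_vs_Mem score (column Mo_GC_vs_Mem.Score1) is a single number that the authors deposited for each spatial transcriptomics spot of a mouse lymph node. It is described here over all 7271 spots of 4 tissue sections, by the region name that the authors gave each spot. By its name the score sets germinal centre B cells against memory B cells, and in these sections it was higher in the germinal centre regions, so a high value is read here as the germinal centre end. The sources used here do not give its gene list or formula. It has no unit and no true zero, so differences and standard deviations are given and no ratios.

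The sections, named A to D, were cut 10 µm thick and 50 µm apart from frozen lymph node tissue of mice that had received an immunization 14 days and a gavage 3 days earlier. The sources used here do not give the antigen, the gavaged agent, the genotype or the number of animals, although the section names carry the tag eYFP. All 4 sections form 1 group with no untreated control, and the study as a whole concerns cells on the way to becoming plasma cells where the dark zone meets the medulla. Errors below are the SD over the 4 sections. The names of the sections share a sample number and differ in a letter, so all of them may come from 1 animal. These errors, the p-values and the counts of sections with the same direction measure only the spread between sections, which may be technical.

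Germinal centres are the sites in B cell follicles where activated B cells divide, mutate their antibody genes and are selected. Cell division and mutation take place mainly in the dark zone, and selection with the help of follicular dendritic cells and follicular helper T cells takes place mainly in the light zone. Memory B cells leave this reaction as resting cells, whereas plasma cells move on to the medulla, the part of the node through which lymph drains.

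A spot collects RNA from a small disc of tissue that holds several cells. The authors named 8 regions, which are the dark zone (DZ), the light zone (LZ), the B zone, the T zone, the medulla, and borders with each of the last 3 (GC_B Border, GC_T Border and GC_Medulla Border). Each of the 1060 border spots touched a DZ or LZ spot, and no spot of the B zone, T zone or medulla did. The region names could not be set against marker genes, because single genes were not analysed here. Sections A to D held 1650, 1876, 1858 and 1887 spots, with medians of 7727, 10528, 3678 and 3836 transcript molecules (UMIs) per spot. Of all spots, 134 had fewer than 1000 UMIs. Fewer cells of a type in a spot and less RNA per cell cannot be told apart in such data.

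**Figure D1:**
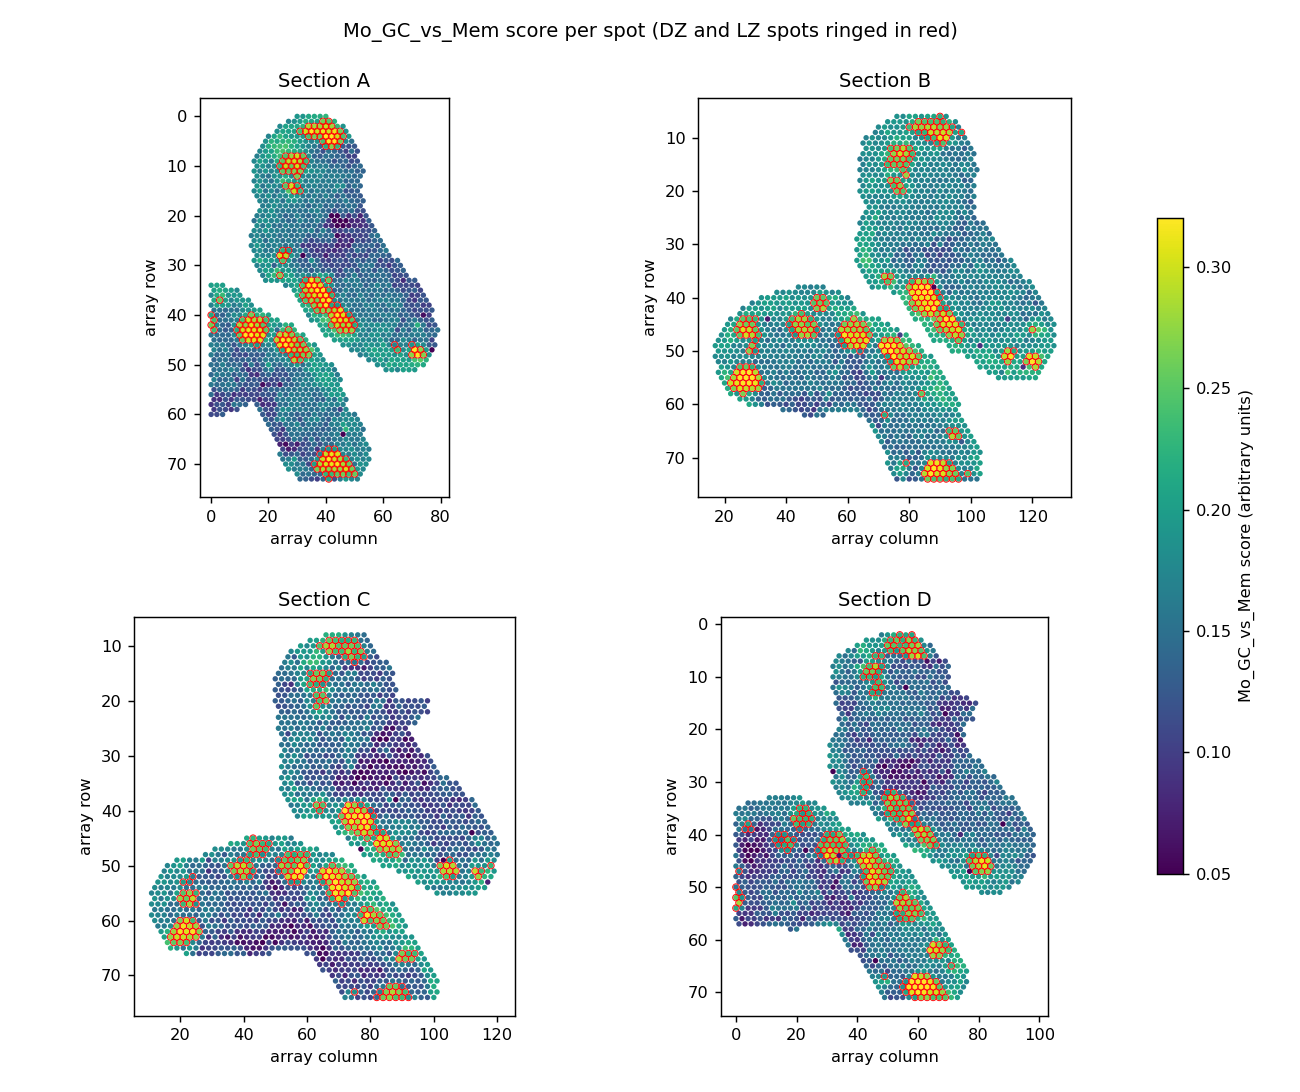
Map of the score in the 4 sections. Each point is a spot at its array column and row, its colour gives the score in arbitrary units, and DZ and LZ spots are ringed in red; the high values lie in compact patches inside the rings, and much of the rest of sections C and D is darker than in sections A and B.

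Inside the regions, the dark zone stood out by its spread. The SD of the score over DZ spots was 0.0417, 0.0400, 0.0467 and 0.0481 in sections A to D (mean 0.0441 ± 0.00393, SD, n = 4). Over LZ spots it was 0.0206, 0.0240, 0.0267 and 0.0285. The DZ exceeded the LZ in spread in each section, by 0.0192 ± 0.00221, and the 2 sets of values did not overlap. The distance from the 10th to the 90th percentile was 0.117 ± 0.00989 in the DZ and 0.0613 ± 0.00559 in the LZ. The spread over spots was lower in the B zone (SD 0.0203) and in the T zone (0.0171), and that of the medulla was 0.0254. These region comparisons are descriptions without a test, since the regions follow expression.

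The wide DZ distribution had its tail at the low end. Its skewness was -0.774, -0.412, -0.557 and -0.199 in sections A to D, below 0 in each. The DZ 10th percentile lay at 0.215, 0.209, 0.187 and 0.186, under the LZ 10th percentile of 0.240, 0.240, 0.227 and 0.213 in every section. The DZ 90th percentile, at 0.316 ± 0.00587, was above that of the LZ, at 0.291 ± 0.00891. The dark zone thus held both the higher and the lower germinal centre scores. A DZ spot scored above an LZ spot of the same section in only 57.5% of spot pairs, while an LZ spot scored above a B zone spot in 98.7% and a DZ spot above a B zone spot in 93.7%.

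**Figure D2:**
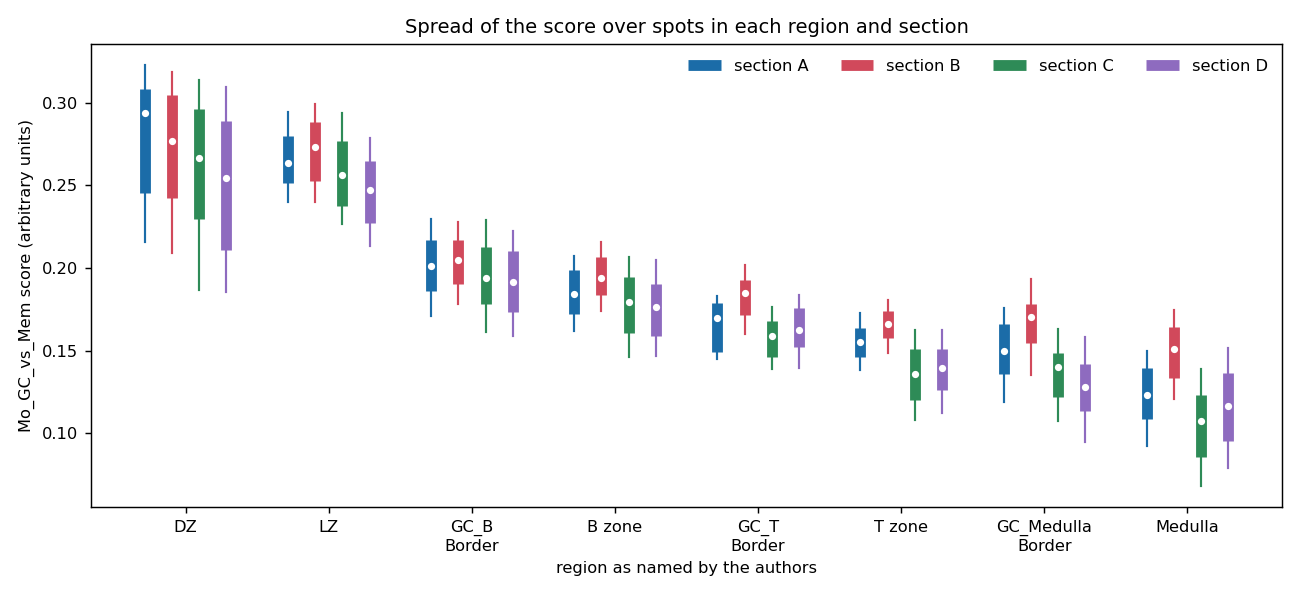
Score by region and section. The horizontal axis gives the 8 regions and the vertical axis the score in arbitrary units; thin lines run from the 10th to the 90th percentile over spots, thick bars from the 25th to the 75th, and white dots mark medians. The DZ lines are the longest, and they reach below those of the LZ in all 4 sections.

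High scores were uncommon outside the germinal centre, and most of those found lay in the GC_B Border. A DZ spot scored above a GC_B Border spot of the same section in 88.7% of spot pairs, and an LZ spot did so in 96.2%. Of DZ spots, 72.9% ± 4.73 scored above the highest B zone spot of their section, as did 82.1% ± 8.23 of LZ spots and 4.65% ± 1.34 of GC_B Border spots. No T zone, medulla, GC_T Border or GC_Medulla Border spot did. Outside the DZ and LZ, 85 of 6318 spots scored above the 10th percentile of the LZ spots of their section. Of these, 68 were GC_B Border spots and 17 were B zone spots, and all lay within 3 steps of a DZ or LZ spot, where a step is the distance between neighbouring spots. Sections A to D held 7, 8, 22 and 48 of them, so most were in section D. There 21.7% of the GC_B Border spots passed this limit, against 3.95% in section A.

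The reverse case, germinal centre spots with a score under the B zone median of their section, was found for 25 of 953 spots. They comprised 23 of the 539 DZ spots and 2 of the 414 LZ spots. At the edge of a germinal centre lay 24 of the 25, as did 696 of all 953 spots. A GC_Medulla Border spot was a neighbour of 22 of the 25 low spots, a GC_B Border spot of 9 and a GC_T Border spot of 6. Over all 364 DZ edge spots these neighbours were found for 173, 223 and 132, and over all 332 LZ edge spots for 27, 324 and 19. Their median was 3016 UMIs, against 9644 over all DZ and LZ spots, and the part of depth in these low scores was not tested. Sections A to D held 2, 4, 8 and 11 of these spots.

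The score moved with the number of UMIs per spot, and this held inside every region. Over all spots of a section it rose by 0.143 ± 0.0192 for a 10-fold higher UMI count, and with the slope taken within regions by 0.0846 ± 0.0194. Region alone took up 77.1% ± 3.36 of the variance of the score over spots, log10 UMIs alone 56.0% ± 14.3, and the 2 together 89.4% ± 3.12. Section B had the weakest link, with 35.4% for log10 UMIs alone. The slope was steepest in the dark zone, at 0.135, 0.0821, 0.171 and 0.1995 in sections A to D. In the light zone it was 0.0578, 0.0733, 0.121 and 0.115, lower than in the dark zone of the same section each time. The other regions lay close together, with mean slopes from 0.0750 in the B zone to 0.0859 in the GC_B Border.

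Within a class of UMIs per spot the DZ and LZ stayed above the B zone, T zone and medulla, while their own order depended on the class. Depth can still differ between regions and sections inside a class. Among spots with 5000 to just under 10000 UMIs the DZ scored 0.251, 0.247, 0.268 and 0.268 in sections A to D and the LZ 0.251, 0.239, 0.256 and 0.252. At 2500 to just under 5000 UMIs the DZ and LZ scored 0.223 and 0.223 in section C and 0.208 and 0.225 in D. The B zone scored 0.177, 0.187, 0.187 and 0.189 at 5000 to just under 10000 UMIs, the T zone 0.159 ± 0.00367 and the medulla 0.145 ± 0.00532. In the T zone the sections also moved closer together. Over all UMI counts the T zone means ran from 0.135 to 0.165 across sections, and at 2500 to just under 5000 UMIs they were 0.134, 0.145, 0.138 and 0.138. In the highest class, at 10000 UMIs or more, the DZ reached 0.289, 0.278, 0.310 and 0.311, so that the less deeply sequenced sections C and D came out above A and B. The SD over sections there, 0.0163, was wider than the 0.0121 over all DZ spots. The class has no upper limit, and it lies above the DZ medians of sections C and D (6410 and 5975 UMIs) but below those of A and B (13896 and 13885). In C and D it thus holds only the deeper DZ spots. The LZ scored 0.269, 0.273, 0.278 and 0.274 in that class, below the DZ in each section.

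**Figure D3:**
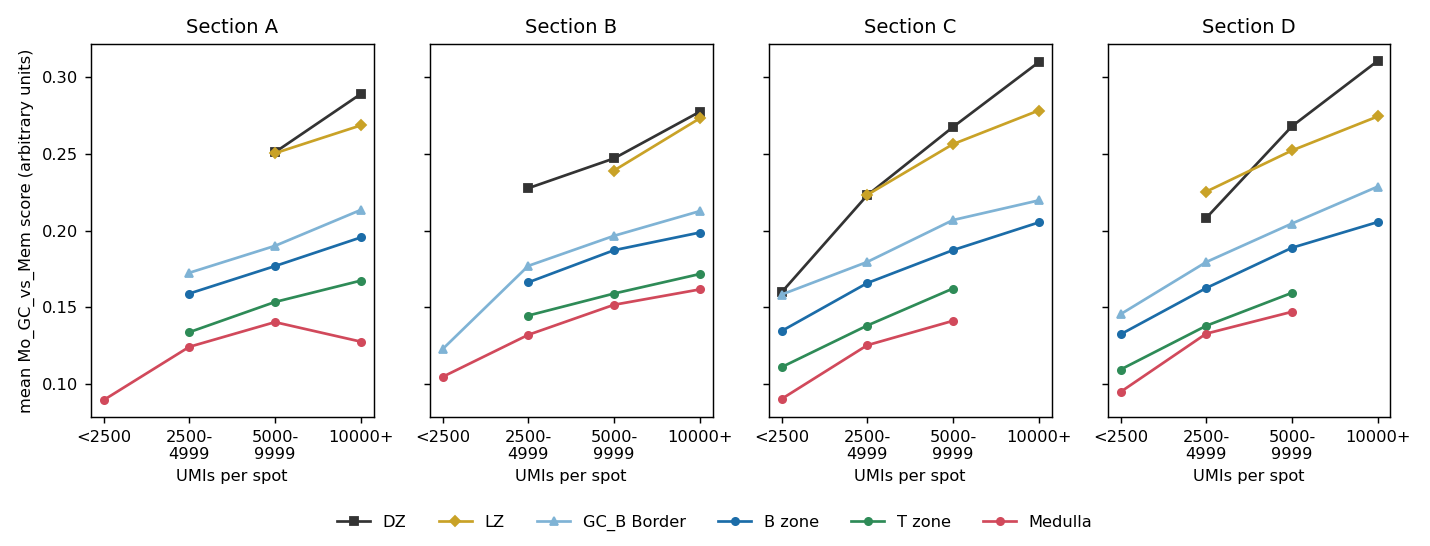
Mean score by UMI class. Each panel is a section, the horizontal axis gives 4 classes of UMIs per spot and the vertical axis the mean score in arbitrary units; a point needs at least 5 spots. Lines rise from left to right, except between the upper classes of the medulla in section A, and the DZ line climbs more steeply than the B zone and T zone lines in sections C and D.

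The score was set beside 2 adjustments for depth. The first removed the slope on log10 UMIs over all spots of a section, and the second removed the slope found within regions; both were recentred on the section mean. Under the second, the order of the means was DZ (0.246), LZ (0.237), GC_B Border (0.186), B zone (0.171), GC_T Border (0.162), GC_Medulla Border (0.159), T zone (0.148) and medulla (0.141). The upper 4 places were the same without adjustment. The order of several pairs in the lower places depended on the choice. The T zone exceeded the medulla by 0.0258 ± 0.00748 in score and by 0.00686 ± 0.00269 after the within-region adjustment, in 4 of 4 sections each. After the all-spot adjustment the difference was -0.00634 ± 0.00483, with the medulla higher in 4 of 4. The GC_Medulla Border was 0.00434 lower than the T zone in score, and after the within-region adjustment it was 0.0109 higher in 4 of 4 sections. Against the B zone it was -0.0391 in score and -0.0128 after the within-region adjustment, below 0 in 4 of 4 sections each, and 0.00466 after the all-spot one, above 0 in 3 of 4. The all-spot adjustment also placed it above the GC_T Border, at 0.168 against 0.159.

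The DZ and LZ spots formed 70 connected patches, with 14, 21, 18 and 17 in sections A to D. The largest in each section held 49, 50, 42 and 56 spots. A patch is a set of touching spots in 1 section, and whether patches of different sections belong to 1 germinal centre was not examined. There were 16 patches of 1 to 2 spots, 21 of 3 to 9, 12 of 10 to 19 and 21 of 20 or more, and the last class held 644 of the 953 spots. Both zones were present in 43 patches, 14 were of DZ spots alone and 13 of LZ spots alone.

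The largest patches had the highest scores and the smallest the lowest, while the 2 classes between them were alike. The mean over patches was 0.224 ± 0.0199 for 1 to 2 spots, 0.246 ± 0.0215 for 3 to 9, 0.249 ± 0.0145 for 10 to 19 and 0.268 ± 0.00978 for 20 or more. From 3 to 9 to 10 to 19 spots it rose in sections A (0.257 to 0.266) and D (0.217 to 0.233) and fell in B (0.267 to 0.255) and C (0.244 to 0.242). After the within-region depth adjustment these 2 classes averaged 0.231 and 0.230. Per unit of log2 size, which is a patch with 2 times the spots, the patch mean rose by 0.00590, 0.00710, 0.0105 and 0.0120 in sections A to D (0.00887 ± 0.00285, SD, n = 4). The slope was above 0 in all 4 sections, and after the within-region depth adjustment it was 0.00697 ± 0.00156. Flipping the signs of the 4 section values in an exact permutation test (two-sided) gave p = 0.125, which is the smallest value that 4 sections allow, so that 0.05 cannot be reached. Adjusted over the 12 comparisons of position it was 0.167. Across patches, which are not independent, size and mean score had a Spearman rho of 0.610 ± 0.109, and size and median UMIs one of 0.226. Median UMIs and mean score had one of 0.611 ± 0.185, so the patch score went with depth as closely as with size.

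Small patches differed most among themselves. Single patches of 1 to 2 spots had means between 0.173 and 0.276, and those of 3 to 9 spots between 0.172 and 0.294. Patches of 20 or more lay between 0.239 and 0.291. The highest patch mean thus belonged to a small patch, in section B, while no patch of 20 or more spots fell into the low part of the range. Of the variance of the score over DZ and LZ spots, 23.1% ± 10.2 lay between patches, with 10.8%, 20.4%, 26.1% and 35.1% in sections A to D. The zone name alone took up 0.902% ± 1.36.

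**Figure D4:**
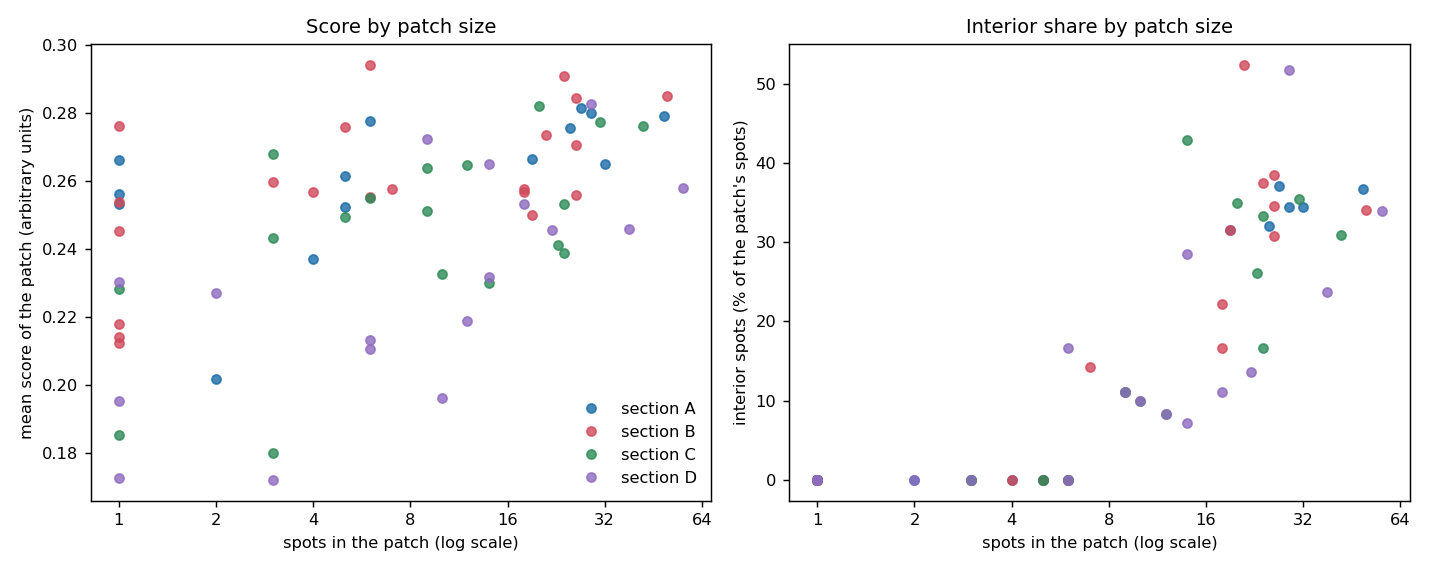
Patch size, score and interior share. Each point is 1 of the 70 patches, coloured by section; the horizontal axes give spots per patch on a log scale, the left vertical axis the mean score in arbitrary units and the right one the percentage of the patch's spots that are interior. Low patch means are found at small sizes, and patches of 20 or more spots have means of 0.239 to 0.291.

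Position inside the patch went with the score more closely than zone did. An edge spot was defined as a DZ or LZ spot with at least 1 neighbouring spot outside these zones, and the others were interior spots; 696 were edge and 257 interior. Interior spots exceeded edge spots by 0.0406, 0.0355, 0.0411 and 0.0415 in sections A to D (0.0397 ± 0.00282), in 4 of 4 sections (exact sign-flip permutation p = 0.125, adjusted 0.167). The gap was 0.0328 ± 0.00196 after the within-region depth adjustment. Edge or interior position took up 22.7% ± 4.12 of the variance over DZ and LZ spots. The interior share rose with size, from 0% of the spots of patches of 1 to 2 spots to 3.13%, 22.1% and 33.3% in the larger classes.

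Among edge spots alone the relation to patch size depended on the setting. Edge spots of patches of 10 or more spots minus those of smaller patches gave 0.00708, -0.00250, 0.00160 and 0.0181 in sections A to D (0.00606 ± 0.00891, exact sign-flip permutation p = 0.375). Section D set most of that mean, and without it the mean was 0.00206. With the limit at 20 spots the difference was 0.0106 ± 0.00391, above 0 in 4 of 4 sections. With the limit at 10 it was also above 0 in 4 of 4 with medians (0.00976), after the within-region depth adjustment (0.00481) and after the all-spot one (0.00459). In percentile ranks of the score it was above 0 in 2 of 4 (mean 1.44 percentile points). Interior spots of patches of 20 or more exceeded those of patches of 10 to 19 by 0.0147, 0.0241, 0.0253 and 0.0205 (0.0211 ± 0.00477). Section C turned after each depth adjustment, to -0.00446 with the within-region one (mean 0.0168, above 0 in 3 of 4 sections) and -0.0241 with the all-spot one. That comparison was chosen after the data had been looked at, and section A held 1 patch of the smaller class.

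The rise towards the interior was larger in the dark zone than in the light zone. In the DZ, the 175 interior spots scored 0.306, 0.300, 0.295 and 0.291 in sections A to D and the 364 edge spots 0.258, 0.257, 0.245 and 0.235. In the LZ, the 82 interior spots scored 0.281, 0.287, 0.277 and 0.261 and the 332 edge spots 0.263, 0.264, 0.250 and 0.242. In each section the DZ interior was the highest of the 4 sets and the DZ edge the lowest. The gap was 0.0493 ± 0.00551 in the DZ and 0.0220 ± 0.00362 in the LZ. The difference of the gaps was 0.0273 ± 0.00736 and was above 0 in 4 of 4 sections (exact sign-flip permutation p = 0.125, adjusted 0.214 over 12 comparisons chosen after looking at the data). It was 0.0197 ± 0.00204 after the within-region depth adjustment and 0.0149 ± 0.00266 after the all-spot one, above 0 in 4 of 4 sections each. Median UMIs were 12095 in the DZ interior and 8955 at the DZ edge, against 11622 and 10958 in the LZ (means of the 4 section medians). The part of depth that remains in the DZ gap was not tested. As DZ and LZ are named from expression, the comparison of their gaps is descriptive, its p-value included.

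The order of the zones accordingly changed with position. Among interior spots the DZ exceeded the LZ by 0.0244, 0.0125, 0.0185 and 0.0294 (0.0212 ± 0.00732). Among edge spots the DZ minus the LZ was -0.00487, -0.00720, -0.00502 and -0.00718 (-0.00606 ± 0.00130), with the DZ lower in all 4 sections. The second difference did not keep its direction after adjustment for depth. Edge spots had a median of 8955 UMIs in the DZ and 10958 in the LZ (means of the 4 section medians), and the difference became 0.000482 ± 0.00342 after the within-region adjustment and 0.00506 ± 0.00488 after the all-spot one. The interior difference was 0.0201 after the within-region adjustment.

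The DZ spread also depended on position. The SD over spots was 0.0425 ± 0.00336 at the DZ edge and 0.0252 ± 0.00524 in the DZ interior, close to the LZ edge (0.0232) and the LZ interior (0.0242). Edge spots were graded by how many of their neighbours lay outside the germinal centre. With 1, 2, 3 and 4 such neighbours, DZ spots averaged 0.280, 0.264, 0.234 and 0.215 over the sections, and LZ spots 0.270, 0.258, 0.252 and 0.242. After the within-region depth adjustment the DZ values were 0.259, 0.248, 0.221 and 0.206. The DZ fell at each further outside neighbour in all 4 sections, and the LZ did so in section B. Between 43 and 129 spots stood behind each of the 4 DZ means.

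The tissue on the other side of the edge went with the DZ score as well. DZ edge spots whose outside neighbours were all GC_B Border spots scored 0.285, 0.285, 0.262 and 0.250 in sections A to D, over 93 spots. Those that faced only the GC_Medulla Border scored 0.249, 0.256, 0.234 and 0.230, over 84 spots, lower in every section by 0.0285 ± 0.00626. This difference was 0.0149 after the within-region depth adjustment, in 4 of 4 sections, and 0.00572 after the all-spot one, above 0 in 2 of 4. The 32 DZ spots that faced only the GC_T Border scored 0.226, 0.250, 0.242 and 0.254 and differed from those facing the GC_Medulla Border by 0.000736 ± 0.0201, above 0 in 2 of 4 sections. LZ edge spots faced the B side almost throughout, 289 of 332 the GC_B Border alone.

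Within a zone, the score also varied with distance from the other zone. LZ spots at 1, 2 and 3 steps from the nearest DZ spot averaged 0.266, 0.253 and 0.244, falling in that order in each section. Over all DZ spots, edge spots included, the means at 1, 2 and 3 steps from the nearest LZ spot were 0.275, 0.264 and 0.253, and the value at 2 steps was below that at 1 step in 4 of 4 sections. Over DZ interior spots alone the direction was the opposite, with 0.294 at 1 step and 0.305 at 2, the second being higher in 4 of 4 sections. Inside patches that held both zones, DZ minus LZ means averaged 0.00522 ± 0.00588, and the DZ was higher in 25 of 43 patches.

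The largest fall in the node was at the germinal centre rim. Between touching spots, the score dropped by 0.0795 ± 0.00425 from the DZ to the GC_Medulla Border over 332 pairs, and the DZ spot was the higher in 99.1% of them. The drop from the DZ was 0.0661 ± 0.0101 to the GC_T Border over 218 pairs and 0.0638 ± 0.00898 to the GC_B Border over 373 pairs. From the LZ to the GC_B Border it was 0.0484 ± 0.00498 over 800 pairs. After the within-region depth adjustment these 4 drops were 0.0601, 0.0535, 0.0503 and 0.0404. The LZ had few contacts with the other borders, where its drop was larger. It was 0.0848 to the GC_Medulla Border over 47 pairs in 3 sections and 0.0704 to the GC_T Border over 22 pairs in 2 sections, with the LZ spot higher in 100% of both. For comparison, touching spots of 1 region differed in absolute terms by 0.0368 within the DZ, 0.0214 within the LZ, 0.0151 within the B zone and 0.0130 within the T zone. On every side the mean drop across the rim, with its sign kept, exceeded these mean absolute differences. The margin was smallest from the LZ to the GC_B Border, at 0.0484 against 0.0368 within the DZ. The regions follow expression, so a drop at the rim of the DZ and LZ is partly built in and was not tested. Touching DZ and LZ spots differed by 0.0266 in absolute terms, and with the sign kept the DZ spot was higher by 0.00943 ± 0.00895.

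The border spots still scored above the zone behind them. At 1 step the GC_B Border exceeded the B zone at 2 steps by 0.00668, 0.00648, 0.0143 and 0.00900 in sections A to D (0.00912 ± 0.00365). The GC_T Border exceeded the T zone at 2 steps by 0.00619, 0.0111, 0.0109 and 0.0173 (0.0114 ± 0.00458). The GC_Medulla Border exceeded the medulla at 2 steps by 0.0105, 0.0138, 0.0152 and 0.0133 (0.0132 ± 0.00195). All 3 held in 4 of 4 sections (exact sign-flip permutation p = 0.125, adjusted 0.167), and after the within-region depth adjustment they were 0.0106, 0.00796 and 0.0115. Each was smaller than the drop at the rim on the same side.

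**Figure D5:**
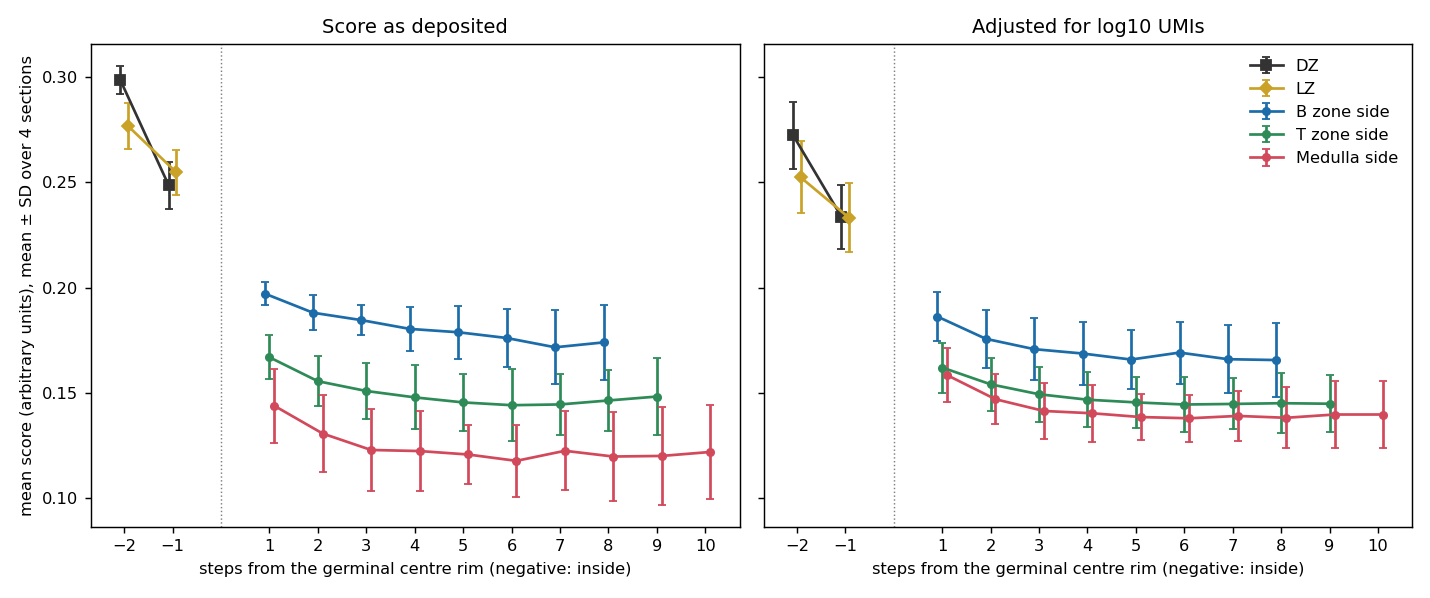
Score by distance from the germinal centre rim. The horizontal axes give steps between spots, negative inside DZ and LZ and positive outside, and the vertical axes the mean score in arbitrary units, as deposited on the left and after the within-region depth adjustment on the right; points are means of the 4 section means and bars their SD. The steep drop lies between -1 and 1, and the adjusted profiles of the T zone and medulla sides lie close together.

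Farther out the score went on falling slowly in the B zone. Counted in steps from the nearest DZ or LZ spot, the B zone side averaged 0.197 at 1 step (the border), 0.188 at 2, 0.185 at 3, 0.180 at 4, 0.179 at 5 and 0.176 at 6. B zone spots at 2 to 3 steps scored 0.192, 0.195, 0.180 and 0.180 in sections A to D, and those at 6 steps or more 0.174, 0.195, 0.164 and 0.163. The near spots were higher by 0.0174, 0.000216, 0.0157 and 0.0172 (0.0127 ± 0.00832; exact sign-flip permutation p = 0.125, adjusted 0.167). Section B stood apart from the other 3. There the far spots had the higher median, 13933 UMIs against 11145 near, whereas in A, C and D the near spots had more. After the within-region depth adjustment the difference was 0.00726 ± 0.00255 in 4 of 4 sections, and after the all-spot one 0.00404, in 3 of 4.

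The T zone showed a fall as well. Its side averaged 0.167 at 1 step, 0.156 at 2, 0.151 at 3, 0.148 at 4 and 0.146 at 5, and then stayed between 0.144 and 0.148 as far as 9 steps. Near spots scored 0.159, 0.168, 0.143 and 0.143 and far spots 0.151, 0.164, 0.130 and 0.136 in sections A to D. The difference was 0.00765, 0.00397, 0.0134 and 0.00699 (0.00801 ± 0.00395; exact sign-flip permutation p = 0.125, adjusted 0.167). It was 0.00696 after the within-region depth adjustment. The fall per step from 2 to 10 steps was seen in 4 of 4 sections, with slopes of -0.00142 ± 0.000746 in the T zone and -0.00259 ± 0.00146 in the B zone.

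In the medulla the raw score gave no common direction. Near spots exceeded far spots by 0.0158, 0.00231 and 0.0165 in sections A, B and C, and in section D they were lower, at -0.0100 (0.00615 ± 0.0126, exact sign-flip permutation p = 0.375). Without section D the mean was 0.0115. In section D the near spots had a median of 1928 UMIs and the far spots 2947, while in the other 3 sections the near spots had more. After the within-region depth adjustment the near spots were higher in 4 of 4 sections, by 0.00502 ± 0.00193. After the all-spot one the difference was 0.00340 ± 0.00712, above 0 in 2 of 4, so the common direction depended on the adjustment. The medulla side averaged 0.144 at 1 step, 0.131 at 2 and 0.123 at 3, and then lay between 0.118 and 0.123 as far as 10 steps. The level mean beyond 3 steps joined sections that moved apart: the score fell from 0.127 at 3 steps to 0.113 at 9 in section A, and rose from 0.104 to 0.118 in section D. After the within-region depth adjustment the slope from 2 to 10 steps was -0.000783 ± 0.000415, below 0 in 4 of 4 sections. It was -0.000512 ± 0.00131 after the all-spot one, below 0 in 2 of 4.

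Whether the 3 zones differed in their fall was compared directly. Near minus far in the B zone less that in the T zone was 0.00464 ± 0.00667, above 0 in 3 of 4 sections (exact sign-flip permutation p = 0.375, adjusted 0.500). The B zone less the medulla gave 0.00650 ± 0.0139 and the T zone less the medulla 0.00186 ± 0.0109, each above 0 in 2 of 4 sections. No difference between the zones was resolved with 4 sections.

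Neighbouring spots resembled each other beyond their region. Moran's I, a correlation between each spot and its neighbours, was 0.821 ± 0.0252 for the score over all spots and 0.421 ± 0.0683 once each region's mean had been removed. After removing the dependence on log10 UMIs as well it was 0.295 ± 0.0659. Log10 UMIs themselves had a value of 0.576 within regions. Each section held 2 separate pieces of tissue, and the B zone and DZ means of the upper and lower pieces differed by 0.000419 ± 0.00756 and -0.00317 ± 0.0105, each above 0 in 2 of 4 sections. After the within-region depth adjustment the upper piece was lower in 4 of 4 sections in the DZ, at -0.00785, and in the T zone, at -0.00281.

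Other scores of the deposited table ran against the germinal centre score over all spots, and by mean rho most strongly inside the dark zone. Over DZ spots its Spearman rho was -0.825, -0.782, -0.774 and -0.838 with the Mo_CD34_SC score in sections A to D, and averaged -0.671 with Mo_Inmt_SC, -0.697 with Mo_Nr4a1Inmt_SC and -0.458 with Mo_Nr4a1_SC. The sources used here do not say what these 4 scores measure. With Mo_CD34_SC the mean rho was -0.680 over all spots, -0.561 in the LZ, -0.490 in the GC_B Border, -0.360 in the B zone and 0.00366 in the medulla. In the LZ it was -0.409 with Mo_Inmt_SC, -0.417 with Mo_Nr4a1Inmt_SC and -0.211 with Mo_Nr4a1_SC. The plasma cell marker score, pc_markers, had a rho of -0.710 ± 0.0945 in the DZ, -0.316 in the LZ, -0.0527 in the medulla and -0.514 over all spots. Spots share section, depth and neighbours, so these are descriptions, and the part of other cell types in the low DZ edge scores was not tested.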

How the data were processed

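The spatial transcriptomics data (Visium, fresh frozen lymph node, 4 sections of 1 group) were taken from the table of spots that the authors deposited. Per the submitters' processing notes, reads were handled with Space Ranger 1.3.1 and Seurat 4.2.1 on mm10; per the labels, tissue was permeabilized for 18 min and libraries were amplified with 16 PCR cycles. The deposited columns used were UMI and gene counts per spot (raw counts), mitochondrial and ribosomal percent of counts, region names, array positions and module scores, whose gene lists and formula the sources used here do not give. Expression of single genes was not analysed here. The score has no depth of its own, so UMIs per spot stand for it.

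Steps, patches and edges were computed on the hexagonal array in Python 3.11.15 with numpy and pandas, and checked on simulated data. Near means 2 to 3 steps and far 6 or more. Differences were formed within each section and tested over the 4 section values by flipping their signs in an exact permutation test (two-sided, 16 assignments) with Benjamini-Hochberg adjustment over 12 planned comparisons, and separately over 12 comparisons chosen after looking at the data. Spots and patches were never replicates. Regions follow expression, so whole regions were compared without a test. Tests between named regions were limited to spots at a set position, namely borders against their zone at 2 steps and DZ against LZ at the edge or interior. A set position does not free the region names from expression, so the p-values of these comparisons are descriptive only. No spot was removed. Alternatives were 2 depth adjustments, log10 genes, percentile ranks, medians, spots with at least 1000 UMIs, other limits, single tissue pieces and leaving out each section. The score and the comparisons were chosen with earlier results of these data known. No sequence is shown, since no gene list of the score was at hand.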

Additional observations from a re-analysis of the deposited data

Results flagged for a closer look

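In 3 of 40 results 1 section lay far from the other 3 by Dixon's criterion for 4 values; chance alone marks about 1 in 20 such sets. Near minus far within the B zone was 0.000216 in section B and 0.0157 to 0.0174 in the others. Interior minus edge of the patches was 0.0355 in section B and 0.0406 to 0.0415 in the others. The B zone's near minus far difference less that of the medulla was 0.0273 in section D and -0.00210 to 0.00162 in the others.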

How the results depend on the processing

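With 4 sections no comparison could pass 0.05, so stability is given by direction alone. Of 142 alternative values of the 12 planned comparisons, 141 kept their direction. Direction here is that of the mean over sections, and single sections could differ from it. Without the values that left out 1 section, 93 of 94 kept it. On the rim of the sampled area, 4 of the alternatives were added after looking at the data. Near minus far within the B zone turned to -0.00298 in the lower tissue piece. Of 84 values of the 12 added comparisons, 75 kept it. DZ minus LZ at the edge turned to 0.00506 with the all-spot depth adjustment and 0.000482 with the within-region one. DZ edge facing only the GC_T Border minus only the GC_Medulla Border turned to -0.0207 and -0.0120 with these, and ran from -0.00705 to 0.00872 with 1 section left out. The B zone's near minus far less that of the T zone turned to -0.00233 with the all-spot adjustment. Outside those 84 values, the adjustment for log10 genes turned these 3 as well, to 0.00142, -0.0188 and -6.88e-05, and percentile ranks turned the last to -0.331 percentile points. With 1 section left out, the B zone less the medulla ran from -0.000423 to 0.00936 and the T zone less the medulla from -0.00319 to 0.00519, the lowest without section D in both. Near minus far in the medulla ran from 0.00269 to 0.0115, and edge spots of large minus small patches from 0.00206 to 0.00891. Interior minus edge was 0.0370 without the 13 patches at the rim of the sampled area and 0.0406 over spots with 6 neighbours.

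Differences were already formed within sections; a block by replicate number across groups does not apply, because all sections form 1 group. Depth limits the precision most in sections C and D, and a score of a spot with few UMIs rests on few molecules.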
